A study of Mus musculus with 40 samples.

Results

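To test what the diet of the dam leaves behind in the heart of adult offspring raised on a low fat diet, the hearts of 20 male mice were compared, out of 40 hearts measured in the series. All 20 animals ate the low fat, high carbohydrate diet (LF) after weaning. They fell into 2 groups of 10: HF_LF, born to dams fed a high fat, low carbohydrate diet (HF), and LF_LF, born to dams fed the LF diet. The members were taken by these 2 labels alone, and no measured value was used to choose them. The labels give the genetic background as C57BL\6 and the sex as male for every animal, and the study's methods name C57BL/6J mice whose dams ate their diet from before mating until weaning. The offspring of both groups were killed at 9 weeks after a fast of some hours. The remaining 20 hearts came from HF-fed offspring of the same kinds of dams and enter the filter on dim probes, the array sets and the interaction test, and are set beside the LF-fed offspring near the end.

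The 10 HF_LF animals came from 5 cages and the 10 LF_LF animals from 4, with 1 to 3 animals per cage. A cage held a sire and a pair of dams of one diet, so littermates and half-sibs share a cage number, and cage lies within maternal diet. Each animal gave 1 array, and p-values over 10 against 10 animals treat littermates as independent. The values are therefore also given by cage.

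Some background is needed for the genes that follow. Glucocorticoids, in the mouse mainly corticosterone, enter the cell and bind the glucocorticoid receptor, which an Hsp90 chaperone complex holds ready. The bound receptor moves to the nucleus and switches on a recognised set of targets, among them Fkbp5, Per1, Tsc22d3 and the metallothioneins. Plasma corticosterone follows a daily rhythm and rises with stress, and the clock of the heart, in which Clock and Arntl activate the Per and Cry repressors, is set partly by it.

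The arrays fitted their label. The cardiac myosin Myh6 lay between 20430 and 26400 intensity units on the 20 arrays, Xist, the X-inactivation transcript of females, between 63.4 and 78.7, and the Y-linked Eif2s3y between 442.4 and 1232, where the median probe of an array stood at 79.2 to 79.5. Some hearts carried transcripts of other tissues. A score over the markers of another tissue (mean log2 distance from the median array) exceeded 1.5 in 4 HF_LF and 3 LF_LF hearts. Of these, HF_LF animals 54 and 55 and LF_LF animal 13 carried pancreas transcripts, and Cela2a, a digestive elastase, reached 10130 units in HF_LF and 29590 in LF_LF against group medians of 109.7 and 88.4. The arrays also fell into 2 sets by their dim probes, of 25 and 15 arrays, set 1 with 7 HF_LF and 5 LF_LF hearts and set 2 with 3 and 5. The sources used here do not say what the sets are.

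Across all genes, the test used here called few differences with the diet of the dam in the hearts of LF-fed offspring. Of 12645 probes tested with limma, 4 were higher in HF_LF and 1 was lower at a false discovery rate of 5%, which is 0.0316% and 0.00791% of the probes. The 4 that rose were Fkbp5, Fam107a, Map3k6 and Per2, and the 1 that fell was Slc41a3. An unadjusted p under 0.05 was reached by 508 probes (4.02%), 259 higher and 249 lower. Counted with 1 probe per gene, 208 of 8749 genes were higher at that level (2.38%) and 178 lower (2.03%). The median log2 fold change over these genes was 0.0021 and the median of its absolute value 0.045, and 87 genes differed by 1.2-fold or more either way. At no probe were the 2 groups of animals fully apart. With 1 cage or 1 animal left out, between 0 and 6 probes passed. Probes still passed with cage as a random block (correlation within cage -0.0137), as given at the end. Fitted over the means of the 5 HF_LF and 4 LF_LF cages, with 7 residual degrees of freedom, limma called 0 probes. In that fit 413 had an unadjusted p under 0.05, and none of the 5 calls held. None held with the later body weight as a covariate either (0 probes, 667 at an unadjusted p under 0.05). Cage means did not overlap between the diets of the dam for 111 genes (1.27%). The study, with its own Bayesian test and filter on expressed genes, reported many more heart genes for this comparison at the same false discovery rate.

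**Figure D1:**
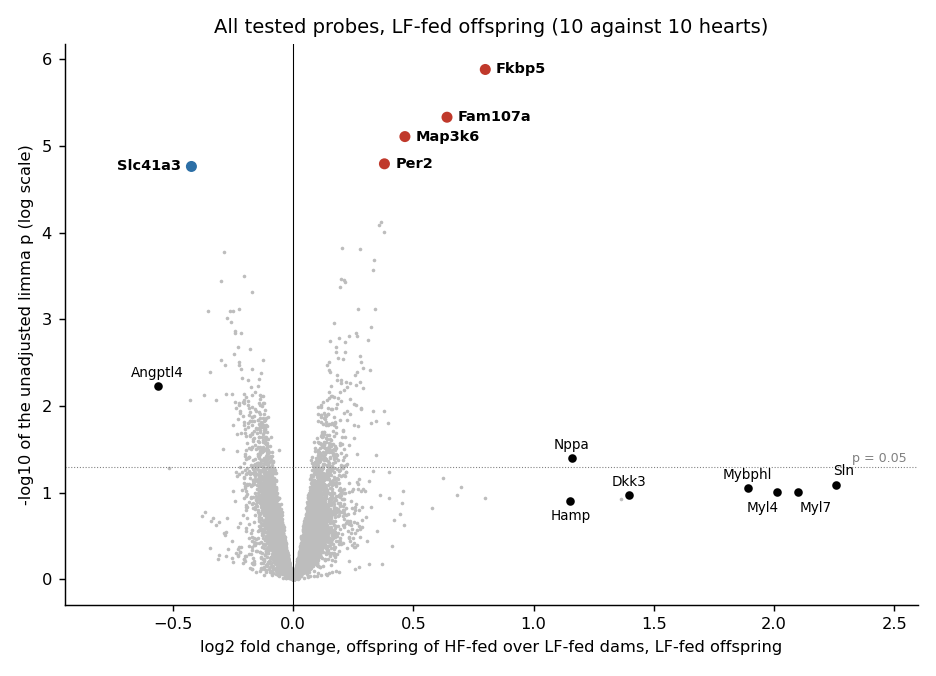
Each point is a tested probe: the x axis gives the log2 fold change of HF_LF over LF_LF hearts (10 against 10) and the y axis the −log10 of the unadjusted limma p. The 4 probes that rose and the 1 that fell are named in bold, and most of the genes far to the right, such as Sln at a log2 fold change of 2.26, are atrial markers near or below the dotted line at p = 0.05.

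Large fold changes and small p-values belonged to different genes. A log2 fold change beyond 0.5 either way was found for 15 genes, and only Fkbp5 and Fam107a among them passed. Several of the rest are transcripts of the atrium: the sarcoplasmic reticulum regulator Sln (log2 2.26, SE 1.23), the atrial light chains Myl7 (2.10, SE 1.22) and Myl4 (2.01, SE 1.17) and the natriuretic peptide Nppa (1.16, SE 0.531). Sln ranged over 112.0, 8665 and 15760 units in HF_LF (lowest, median and highest) and over 60.9, 266.8 and 14600 in LF_LF. Both groups thus held hearts with much and hearts with little atrial signal. Angptl4, a lipoprotein lipase inhibitor that fatty acids and glucocorticoids both induce, had the largest fold change in the opposite direction (log2 -0.56, SE 0.184, adjusted p = 0.909).

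The 5 genes were chosen by their p over these same animals, which favours cage means that do not overlap, so their cage means are given as a description. Fkbp5 encodes a co-chaperone that sits in the receptor complex with Hsp90 and lowers the receptor's affinity for its ligand, and its gene is itself a receptor target. Its probe read 195.2, 290.1 and 357.4 units in HF_LF (lowest, median and highest) and 113.2, 161.8 and 231.5 in LF_LF. Of the 10 HF_LF hearts, 8 lay above every LF_LF heart, and the other two, both of cage 1, lay within the LF_LF range. The cage means ran from 209.2 to 341.2 units over the 5 HF_LF cages and from 130.4 to 183.3 over the 4 LF_LF cages, without overlap. The rise was 1.74-fold (log2 0.80, SE 0.122, limma adjusted p = 0.0165).

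Fam107a encodes an actin-binding protein that stress and glucocorticoids induce in the mouse brain. It read 214.7, 278.2 and 336.1 units in HF_LF and 127.9, 175.9 and 248.1 in LF_LF, and 8 of the 10 HF_LF hearts lay above every LF_LF heart. The exceptions came from cage 23. Cage means ran from 242.1 to 312.8 units in HF_LF and from 138.2 to 208.6 in LF_LF. It rose 1.56-fold (log2 0.64, SE 0.106, limma adjusted p = 0.0294).

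Map3k6 encodes ASK2, a kinase at the head of the stress-activated MAP kinase cascades. It read 284.5, 332.3 and 416.1 units in HF_LF and 193.6, 236.0 and 306.3 in LF_LF, and 7 HF_LF hearts lay above all LF_LF hearts. The overlap came from LF_LF cage 8, where animals 14 and 15 read 289.2 and 306.3. Cage means ran from 305.2 to 380.8 units in HF_LF and from 197.1 to 278.9 in LF_LF (rise 1.38-fold, log2 0.46, SE 0.0801, limma adjusted p = 0.0327). Of the other 24 tested genes of the cascade, 0 were higher and 1, Mapk11, was lower at an unadjusted p under 0.05. Over all genes 2.38% were higher and 2.03% lower at that level. The median log2 fold change of all 25 was 0.012.

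Per2, a repressor of the circadian clock, had the smallest standard error of the genes that rose. It read 581.6, 733.2 and 774.6 units in HF_LF and 452.1, 545.3 and 669.2 in LF_LF. All HF_LF hearts but that of animal 128 lay above every LF_LF heart. Cage means ran from 660.9 to 761.7 units in HF_LF and from 462.7 to 611.6 in LF_LF, and the rise was 1.30-fold (log2 0.38, SE 0.0691, limma adjusted p = 0.0435).

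Slc41a3, a magnesium transporter of the mitochondrial membrane, was the only gene that fell. It read 230.3, 268.5 and 347.3 units in HF_LF and 328.2, 358.9 and 413.4 in LF_LF, and 9 of the 10 HF_LF hearts lay below all LF_LF hearts. The cages nearly met: HF_LF cage 1 averaged 329.0 units and LF_LF cage 8 averaged 331.3. The fall was 0.42 on the log2 scale (SE 0.0774, limma adjusted p = 0.0435). Of 18 listed magnesium transporters 7 were tested, and the other 6 had log2 fold changes between -0.05 and 0.06 at their brightest probe.

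**Figure D2:**
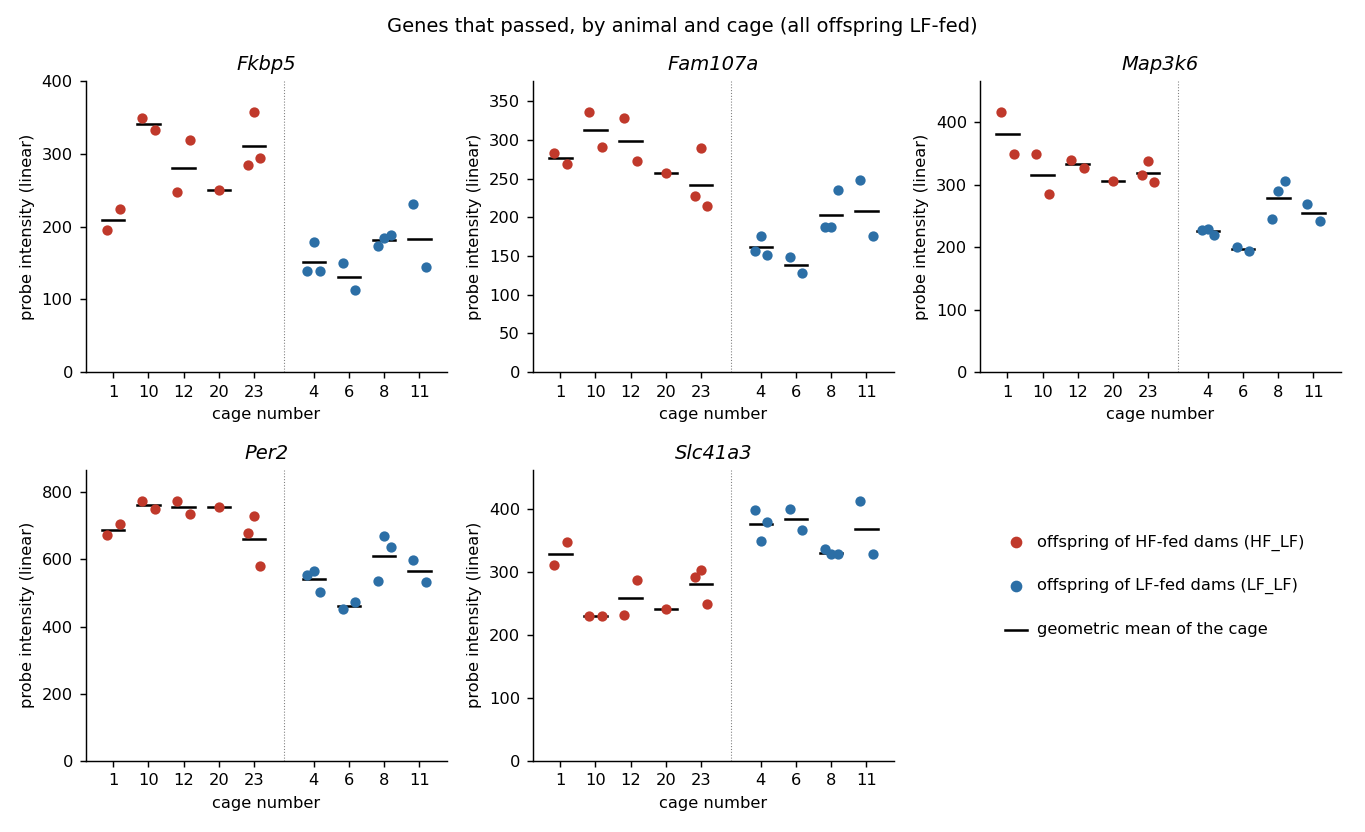
Probe intensity on a linear axis for the 5 genes that passed, each point 1 animal, arranged along the x axis by cage, with HF_LF cages in red on the left and LF_LF cages in blue on the right; the bar is the geometric mean of the cage. Cage means of the groups do not overlap in any panel, LF_LF cage 6 is the lowest for the 4 genes that rose, and HF_LF cage 1 comes closest to the LF_LF cages for Fkbp5 and Slc41a3.

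Among the genes with the smallest p, further probes of a gene went the same way as its leading probe. The 15 higher genes with the smallest p held 7 further probes and the 15 lower genes 13, and all 20 had the sign of the leading probe, against 65.8% of 3180 further probes over all genes. An unadjusted p under 0.05 with that sign was reached by 6 of 7 and 6 of 13, against 1.1% overall. Further probes read the same hearts as the leading probe, and the choice of genes by p favours such agreement. The shares over all genes come without that choice, so the comparison is not like for like. The second probe of Per2 stood at 0.36 on the log2 scale (SE 0.0737, adjusted p = 0.146). Slc41a3 had a pair of further probes at -0.29 (SE 0.0634, adjusted p = 0.19) and -0.36 (SE 0.0918, adjusted p = 0.393). Fkbp5, Fam107a and Map3k6 were measured by 1 tested probe each.

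Because 3 of the genes that rose are on the list of glucocorticoid-induced genes, the sequence before their start sites is of interest. The receptor binds as a dimer to an inverted repeat of short half-sites, and a consensus for it was searched, on both strands, in the 250 bases before each start site of the RefSeq promoters (GRCm38.p6), as GNACANNNTGTNC, where N is any base. The pattern reads the same on both strands. It stood in 127 of 32851 promoters (0.387%) and, by gene, in 29 of 7120 tested genes that had a promoter entry (0.407%). The list of glucocorticoid-induced genes described below was drawn up with earlier results of these hearts known, and it includes Fam107a and Map3k6. A count over it is thus no independent evidence. Among its members, 27 had an entry and 5 held the pattern: Fam107a, Map3k6, Mt1, Sgk1 and Slc10a6. Shown are the promoters of the 3 of these with the smallest p, with the match in capitals. Of 3 start sites listed for Fam107a, a pair set 2 bases apart held the same match, and the sequence of one is shown.
Fam107a (chr14:8309780-8310029, minus strand): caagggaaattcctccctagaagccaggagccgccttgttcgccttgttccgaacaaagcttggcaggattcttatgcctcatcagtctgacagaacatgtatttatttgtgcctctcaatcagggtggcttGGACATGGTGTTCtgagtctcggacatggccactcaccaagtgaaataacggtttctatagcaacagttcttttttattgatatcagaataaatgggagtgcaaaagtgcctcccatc
Map3k6 (chr4:133240568-133240817, plus strand): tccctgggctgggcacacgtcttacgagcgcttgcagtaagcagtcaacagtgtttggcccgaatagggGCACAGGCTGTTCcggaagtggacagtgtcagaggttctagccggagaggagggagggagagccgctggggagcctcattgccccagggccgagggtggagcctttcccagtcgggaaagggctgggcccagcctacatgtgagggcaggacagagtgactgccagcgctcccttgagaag
Mt1 (chr8:94178839-94179088, plus strand): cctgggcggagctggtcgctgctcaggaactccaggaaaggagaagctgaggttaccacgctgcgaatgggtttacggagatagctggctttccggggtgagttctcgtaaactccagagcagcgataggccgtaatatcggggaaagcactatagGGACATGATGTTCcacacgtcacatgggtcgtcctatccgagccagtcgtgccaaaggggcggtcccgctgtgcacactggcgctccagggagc

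The same window of Fkbp5 held no such match, nor did that of Slc41a3, and Per2 had no entry. Both held the E-box CACGTG, the site of the Clock and Arntl dimer, which also reads the same on both strands. It stood in 718 of 7120 tested genes (10.1%) and in 3 of the 15 clock genes with an entry, Ciart, Per1 and Tef. A match says only that these letters are present in the window, and no binding was measured. Shown are Fkbp5 and Slc41a3, which passed, and the first of the Per1 start sites, for comparison, with the E-box in capitals.
Fkbp5 (chr17:28486150-28486399, minus strand): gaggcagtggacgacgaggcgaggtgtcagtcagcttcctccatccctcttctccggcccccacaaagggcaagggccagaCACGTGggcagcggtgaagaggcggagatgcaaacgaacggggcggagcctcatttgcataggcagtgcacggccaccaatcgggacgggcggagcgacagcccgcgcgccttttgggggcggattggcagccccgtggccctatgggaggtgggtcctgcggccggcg
Slc41a3 (chr6:90618996-90619245, plus strand): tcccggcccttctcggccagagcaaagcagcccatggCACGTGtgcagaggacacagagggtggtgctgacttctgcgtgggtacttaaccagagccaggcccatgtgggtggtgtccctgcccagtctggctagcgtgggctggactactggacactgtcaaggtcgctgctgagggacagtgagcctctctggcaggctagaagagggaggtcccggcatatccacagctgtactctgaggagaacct
Per1 (chr11:69098699-69098948, plus strand): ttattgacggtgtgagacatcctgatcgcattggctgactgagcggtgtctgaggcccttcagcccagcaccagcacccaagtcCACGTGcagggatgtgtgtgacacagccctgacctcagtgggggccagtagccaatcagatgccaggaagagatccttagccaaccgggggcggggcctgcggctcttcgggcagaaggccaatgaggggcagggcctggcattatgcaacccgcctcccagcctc

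Around the receptor itself no gene but Fkbp5 passed. The log2 fold change of the receptor gene Nr3c1 was 0.11 (SE 0.0736, adjusted p = 0.996), that of its chaperone Hsp90aa1 was -0.06 (SE 0.129), that of the related co-chaperone Fkbp4 was -0.10 (SE 0.0693) and that of Hsd11b1, the enzyme that regenerates corticosterone inside cells, was -0.13 (SE 0.185); the last gene and Hsp90aa1 were picked for their roles after their values were seen. Of 11 tested genes of the receptor, its chaperones and steroid enzymes, Fkbp5 alone had an unadjusted p under 0.05. Over all genes 2.38% were higher and 2.03% lower at that level. The median of the list was -0.0096. Nr3c1 and Hsp90aa1 were dim, with mean log2 intensities of 6.69 and 6.58 in HF_LF and 6.59 and 6.65 in LF_LF. These lie close to the array medians of 79.2 to 79.5 units, and no background was subtracted, so small fold changes there say little. Hsp90ab1 had no probe, and Hsd11b2 was on the array but not tested.

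Of 36 listed glucocorticoid-induced genes 31 were tested, and 26 of them had positive fold changes. At an unadjusted p under 0.05, 16 were higher in HF_LF (against 2.38% of all genes) and 1, Angptl4, was lower (against 2.03%). Their median log2 fold change was 0.22, against 0.0021 over all genes, and 7 members had cage means that did not overlap, against 1.27% of genes. At a false discovery rate of 5%, the 3 genes above were the ones that rose. Earlier results of these hearts were known when the list was drawn up, so its direction is not independent evidence. Outside the 3 that passed, no member may be said to have changed.

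The members with the smallest p after those 3 were spread over different roles. Pik3r1, the regulatory subunit of the insulin-responsive lipid kinase, read 1436, 1700 and 2111 units in HF_LF and 1114, 1385 and 1484 in LF_LF (log2 0.34, SE 0.0759, adjusted p = 0.218). A second probe gave 0.34 as well (SE 0.0869). Mt1, a metal-binding metallothionein, read 13580, 15610 and 18710 units in HF_LF and 9269, 13130 and 15010 in LF_LF (log2 0.33, SE 0.0763, adjusted p = 0.258), and its neighbour Mt2 had a log2 fold change of 0.27 (SE 0.0828). In all of these the ranges of the groups overlapped, while the 10 HF_LF hearts lay above the LF_LF median. Sult1a1, a phenol sulfotransferase, had a log2 fold change of 0.33 (SE 0.0876), the clock gene Per1 0.31 (SE 0.0876), Tsc22d3, the anti-inflammatory leucine zipper protein GILZ, 0.28 (SE 0.0902), the lipid droplet protein Plin4 0.22 (SE 0.074) and the transcription factor Klf9 0.18 (SE 0.0515). Other familiar targets had unadjusted limma p-values above 0.05 at the probes given here. The kinase Sgk1 stood at 0.18 (SE 0.107), the mTORC1 inhibitor Ddit4 at 0.27 (SE 0.228) and Klf15 at 0.11 (SE 0.0807). The cell cycle inhibitor Cdkn1a stood at 0.13 (SE 0.095) and Hif3a at 0.14 (SE 0.15). Hif3a was dim, with a mean log2 intensity of 6.74 in HF_LF and 6.59 in LF_LF, close to the array medians of 79.2 to 79.5 units.

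The mean of the 31 members per heart (log2, each gene centred on its mean over the 20 arrays) had a lowest, median and highest value of -0.0255, 0.0996 and 0.202 in HF_LF and of -0.265, -0.0843 and 0.0592 in LF_LF. Without Fkbp5, Fam107a and Map3k6 it was -0.051, 0.0752 and 0.184 in HF_LF and -0.238, -0.0625 and 0.0639 in LF_LF. The cages spread widely within a diet of the dam. Over the 31 members, HF_LF cage 12 stood highest at 0.172 and HF_LF cage 23 at 0.0549, whereas LF_LF cage 8 stood at 0.0102 and LF_LF cage 6 lowest at -0.26.

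The count of 16 became 10 when the 7 hearts carrying other tissues' transcripts were left out (all genes 1.61%), 17 with the array set as a term (2.66%), 16 within set 1 (2.37%), 5 within set 2 (1.47%), 15 over cage means (1.81%) and 19 with the atrial score as a covariate (3.71%). The median over the list lay between 0.13 and 0.27 in these settings, and between 0.165 and 0.243 with any 1 cage left out.

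**Figure D3:**
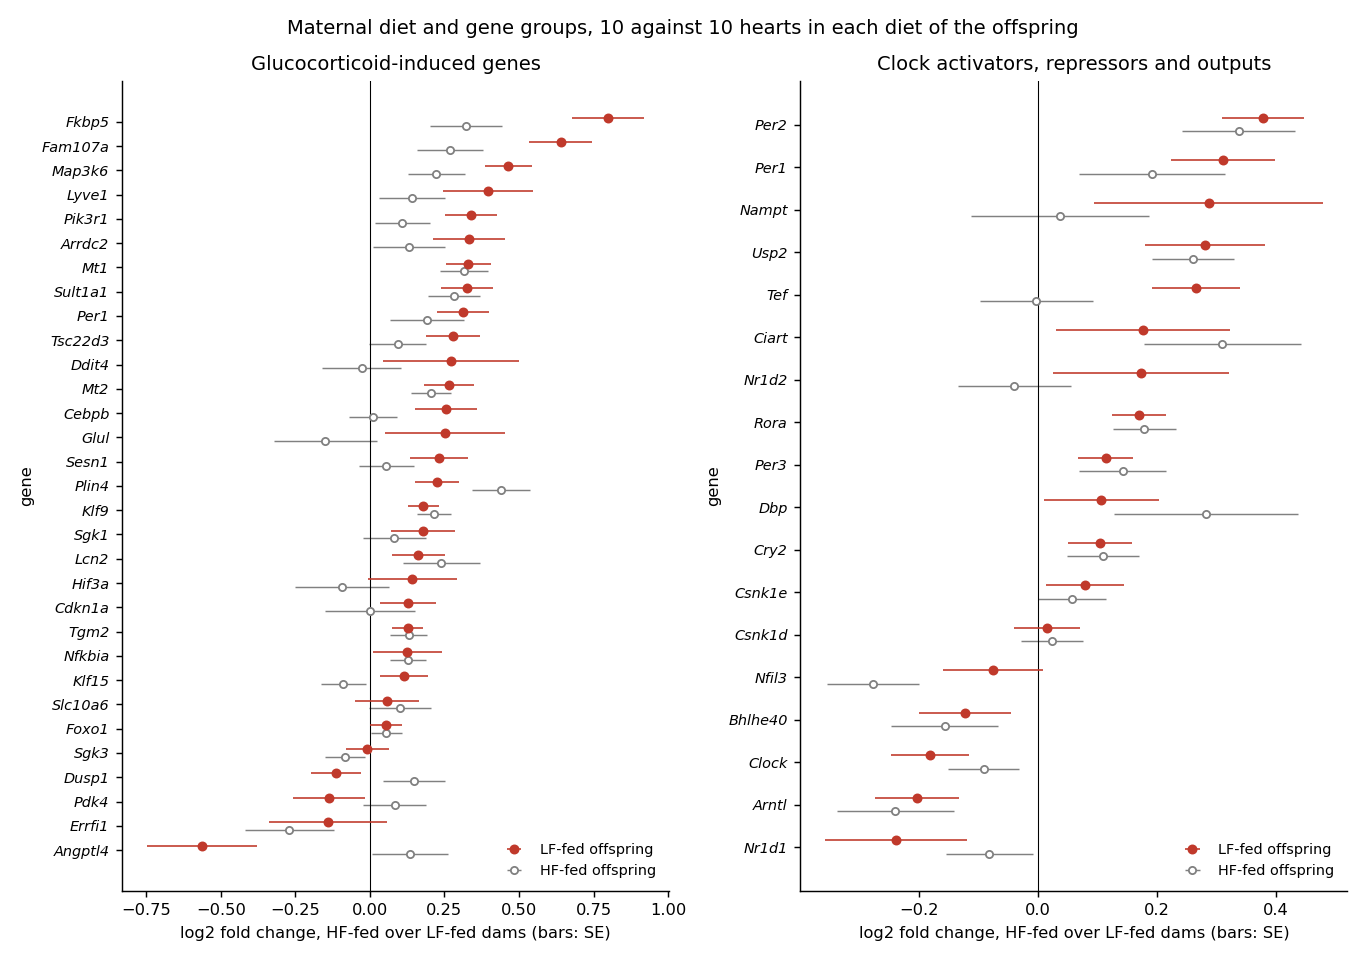
Log2 fold change of offspring of HF-fed over offspring of LF-fed dams, with its SE as a bar, for each tested glucocorticoid-induced gene (left panel) and clock gene (right panel) at its brightest probe; filled red points are LF-fed offspring and open grey points HF-fed offspring, 10 against 10 hearts in each. In LF-fed offspring 26 of 31 points of the left panel lie right of 0, with Fkbp5 at 0.80, and in the right panel Per2 and Per1 lie at the top and Clock, Arntl and Nr1d1 at the bottom.

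In the clock, the Per genes had positive fold changes and the core activators Clock and Arntl negative ones. The core activator Arntl read 73.8, 86.1 and 93.7 units in HF_LF and 74.7, 96.45 and 124.8 in LF_LF (log2 -0.20, SE 0.0702). Its lowest readings in both groups lie below the array medians of 79.2 to 79.5 units, and no background was subtracted. Clock, the partner of Arntl, read 316.8, 402.9 and 453.5 units in HF_LF and 398.2, 454.3 and 508.8 in LF_LF (log2 -0.18, SE 0.0656). All 10 HF_LF hearts lay below the LF_LF median for both. Rora, the nuclear receptor that drives Arntl, went the other way, at 304.1, 340.0 and 370.2 units in HF_LF and 278.9, 297.6 and 331.1 in LF_LF (log2 0.17, SE 0.0453, adjusted p = 0.474). Unadjusted p-values under 0.05 were thus found for all 3 tested activators, 1 higher and 2 lower, against 2.38% and 2.03% of all genes. The 2 lower became 0 within array set 2, and 1 within set 1 or without the hearts carrying other tissues' transcripts.

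Among 10 tested repressors, 3 were higher at that level (1 within array set 2) and 0 lower at the brightest probe (2 within set 1 and 2 after adjusting for the atrial score), and Per2 alone rose by the adjusted test. Per1 read 630.9, 733.0 and 1035 units in HF_LF and 504.4, 608.2 and 808.5 in LF_LF, and Per3 had a log2 fold change of 0.11 (SE 0.0463). Nr1d1, the REV-ERB repressor of Arntl, had fold changes of -0.28 (SE 0.0863) and -0.24 at its pair of probes, whereas its relative Nr1d2 stood at 0.17 (SE 0.148) and Cry2 at 0.11 (SE 0.0538). Of the outputs, the transcription factor Tef read 448.6, 570.1 and 695.0 units in HF_LF and 391.5, 476.8 and 542.1 in LF_LF (log2 0.27, SE 0.0738, adjusted p = 0.553), while its other tested probe stood at -0.01. The deubiquitinase Usp2 had a log2 fold change of 0.28 (SE 0.101), Dbp 0.11 (SE 0.0965) and Nfil3 -0.08 (SE 0.0836). The median over the 5 tested outputs was 0.27. The hour at which each animal was killed is missing from the sources read here. Its part in these values was not tested.

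Herpud1 stood next after the genes that passed. It encodes a membrane protein of the endoplasmic reticulum that takes misfolded proteins to degradation, and it is best known as a gene of the unfolded protein response. It read 8014, 9606 and 11790 units in HF_LF and 5950, 7238 and 9211 in LF_LF (log2 0.36, SE 0.0751, adjusted p = 0.146). The second probe gave 0.38 (SE 0.0796, adjusted p = 0.154). For both probes the 10 HF_LF hearts lay above the LF_LF median. Of 15 tested genes of the endoplasmic reticulum stress list, Herpud1 alone had an unadjusted p under 0.05. Over all genes 2.38% were higher and 2.03% lower at that level. The median of the list was -0.018. The promoter of Herpud1 holds the stress element ATTGGNCCACG, searched on both strands. The element was found in 6 of 7120 tested genes (0.0843%). It is shown in capitals for Herpud1, chosen as the one gene of its list with such a p.
Herpud1 (chr8:94386179-94386428, plus strand): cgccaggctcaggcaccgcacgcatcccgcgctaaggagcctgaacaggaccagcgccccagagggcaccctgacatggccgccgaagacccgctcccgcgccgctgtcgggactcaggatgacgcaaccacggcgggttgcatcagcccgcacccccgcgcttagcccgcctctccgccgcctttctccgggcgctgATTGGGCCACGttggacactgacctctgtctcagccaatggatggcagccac

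Of the 15 higher genes with the smallest p, 13 had all 10 HF_LF hearts above the LF_LF median, and 13 had cage means without overlap, which the choice by p favours. Beside those named above they were the Krüppel-like factor Klf13 (462.6, 505.8 and 648.3 units in HF_LF, 373.2, 422.7 and 494.6 in LF_LF, log2 0.28, SE 0.0607, adjusted p = 0.19), Maco1 (426.5, 482.6 and 534.4 units in HF_LF, 394.5, 412.7 and 430.7 in LF_LF, log2 0.20, SE 0.0447, adjusted p = 0.19), the interferon-induced Ifit3 (log2 0.20), Ggnbp2 (log2 0.21), the scaffold protein Homer1 (log2 0.19) and Fam214a (log2 0.27).

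The 15 lower genes had smaller fold changes, from -0.42 for Slc41a3 to -0.12 for Bloc1s5. After Slc41a3 the smallest p belonged to Nes, the intermediate filament nestin, at 120.3, 132.1 and 147.3 units in HF_LF and 137.9, 150.0 and 170.9 in LF_LF (log2 -0.20, SE 0.0476, adjusted p = 0.258). These readings lie close to the array medians of 79.2 to 79.5 units, and no background was subtracted. Lmcd1, a LIM domain protein linked to cardiac hypertrophy in mice, had 3 probes, at -0.25 (SE 0.064), -0.28 (SE 0.0727) and -0.24 (SE 0.0662), and its brightest read 415.5, 448.0 and 547.2 units in HF_LF and 470.4, 533.2 and 652.2 in LF_LF. Fbxl22, an F-box protein of the sarcomere, had a log2 fold change of -0.26 (SE 0.0681), Klhl30 of -0.23 (SE 0.0582) and Ddit4l, an mTORC1 inhibitor, of -0.17 (SE 0.0423). The others were the endothelial proteoglycan Esm1 (-0.26), the adaptor Sh3kbp1 (-0.24), the mitochondrial fusion factor Miga2 (-0.22), the integrin chain Itgb6 (-0.23), the NAD synthesis enzyme Naprt (-0.18), Tesmin (-0.30), the pro-apoptotic Bik (-0.22) and the neurotrophin Bdnf (-0.30, SE 0.0901). Tesmin (83.2 to 120.4 units in HF_LF, 103.4 to 151.3 in LF_LF) and Ddit4l (105.2 to 116.6 and 108.9 to 137.2) were dimmer than Nes. The limit given for Nes holds for them too. Adjusted p-values of the 15 lower genes ran up to 0.734 and none of these passed but Slc41a3.

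Metabolic genes of the heart showed no called change. Over all genes, 2.38% were higher and 2.03% lower at an unadjusted p under 0.05. Of 20 tested PPAR-regulated fatty acid genes, 0 were higher and 2 lower at an unadjusted p under 0.05, and 16 had negative fold changes (median -0.037). The lower ones were Angptl4 and Ucp3, the mitochondrial uncoupling protein, which read 145.8, 232.6 and 284.7 units in HF_LF and 217.5, 273.9 and 359.5 in LF_LF (log2 -0.35, SE 0.108, adjusted p = 0.786). Among 47 respiratory chain genes 0 were higher and 1 lower (median -0.0063), and among 20 genes of the citrate cycle and 25 of glucose use 0 in either direction (medians 0.0079 and -0.023). Branched-chain amino acid breakdown gave 0 higher and 2 lower of 16 (median -0.051). Fatty acid and cholesterol synthesis gave 0 of 18 in either direction, with a median of -0.061. With the atrial score as a covariate 7 of the 18 were lower (all genes 2.71%) and the median was -0.15. With 1 cage left out the median lay between -0.13 and -0.014. Insulin signalling gave 2 higher of 20, Pik3r1 and Grb10.

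Contractile and matrix genes were likewise without a call. The shares over all genes at an unadjusted p under 0.05 were 2.38% higher and 2.03% lower. Among 24 sarcomere and hypertrophy genes, Tcap, the titin cap protein (log2 0.17, SE 0.0703), and the natriuretic peptide Nppa were higher at an unadjusted p under 0.05 and Rcan1, an inhibitor of calcineurin, was lower (log2 -0.23, SE 0.0794). When the hearts carrying other tissues' transcripts were left out, 0 were higher and 0 lower. Of 28 collagen and matrix genes the metalloproteinase inhibitor Timp3 was the only one at that level, at 2544, 3369 and 4560 units in HF_LF and 2268, 2890 and 3396 in LF_LF (log2 0.32, SE 0.0988). With the atrial score as a covariate 2 were higher and 4 lower (all genes 3.71% and 2.71%). The median of the list, 0.047 without the covariate, was then -0.055. Ion channels gave Kcnh2, a potassium channel of repolarisation (log2 0.23, SE 0.0759), as 1 higher of 16. Of the 44 ribosomal protein genes none reached that level, although 35 had positive fold changes (median 0.03). All 12 tested imprinted genes had positive fold changes of at most 0.32, and Grb10 alone had an unadjusted p under 0.05, but within array set 1 their median was -0.013.

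**Figure D4:**
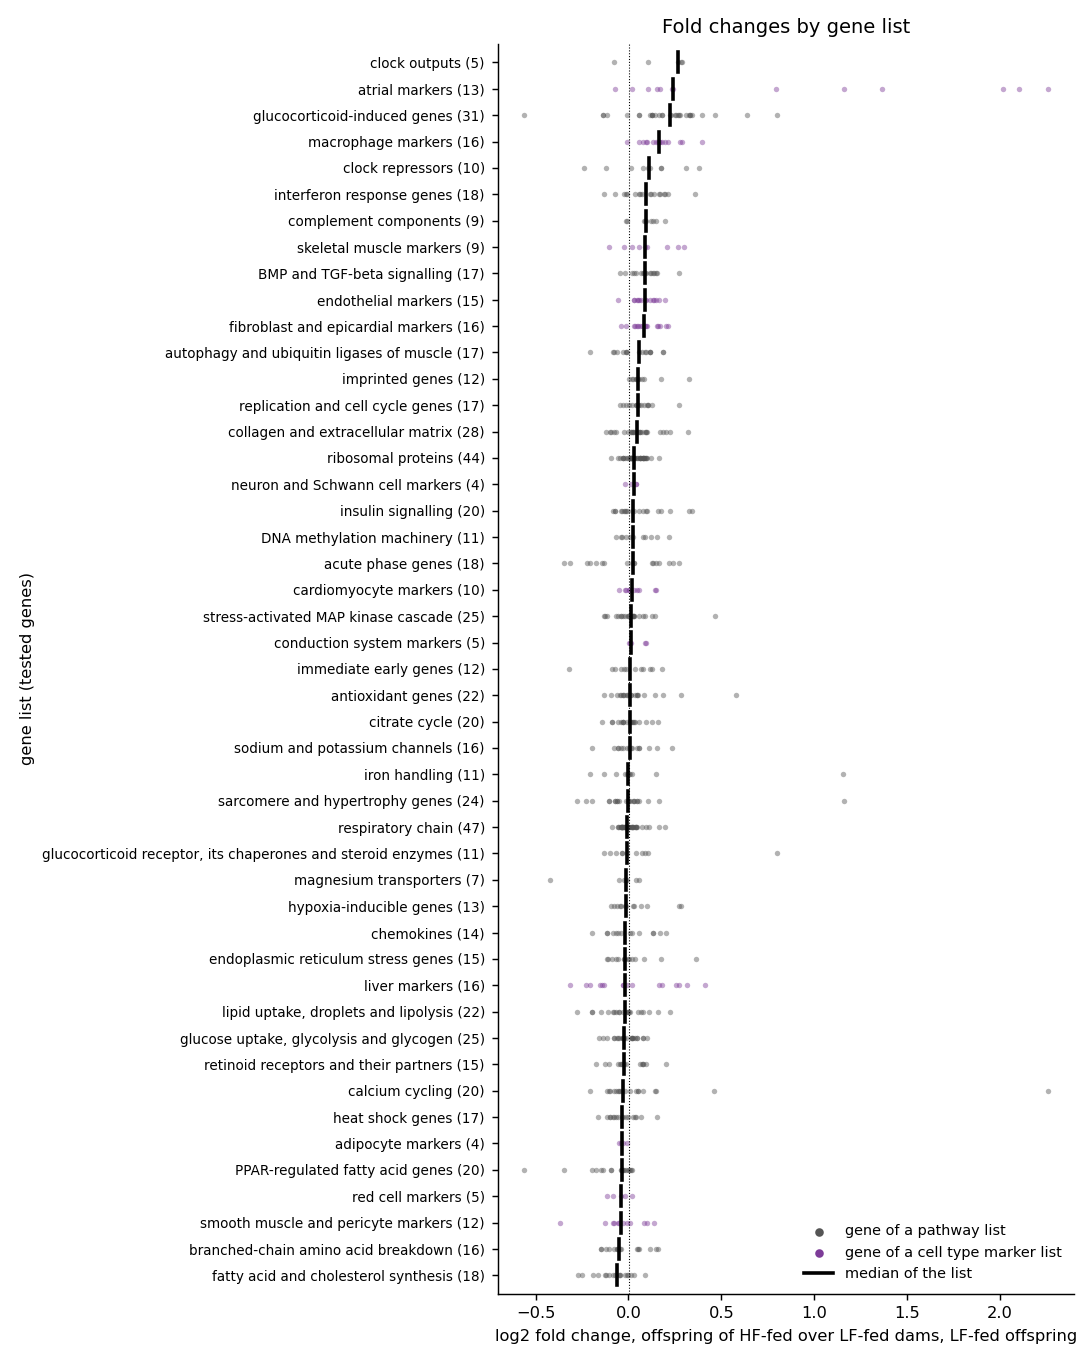
Log2 fold change of HF_LF over LF_LF hearts for every tested gene (points, brightest probe) of each gene list with 4 or more tested genes, named at the left with the number tested; the black bar is the median of the list and the dotted line the median of all genes (0.0021). Clock outputs (0.27), atrial markers (0.24), glucocorticoid-induced genes (0.22) and macrophage markers (0.16) have the highest medians, and fatty acid and cholesterol synthesis has the lowest (-0.061).

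No cell type marker passed, though most atrial and macrophage markers had positive fold changes. In bulk tissue fewer cells of a type and less RNA per cell cannot be told apart. The atrial score had a lowest, median and highest value of -1.62, 0.538 and 1.03 in HF_LF and of -1.83, -1.19 and 0.962 in LF_LF, so that low atrial signal was more frequent in LF_LF and both groups held both kinds of heart. Of 13 tested atrial markers 12 had positive fold changes (median 0.24, between 0.12 and 0.38 with 1 cage left out). Nppa alone had an unadjusted p under 0.05, against 8 markers within array set 2 (all genes 1.47% higher). Of 16 macrophage markers 15 had positive fold changes (median 0.16), and 4 were higher at that level, against 2.38% of all genes: F13a1, the coagulation factor of resident macrophages, the scavenger receptor Cd163, the hyaluronan receptor Lyve1 and the complement subunit C1qc. F13a1 read 434.1, 512.0 and 593.9 units in HF_LF and 293.0, 429.5 and 500.7 in LF_LF. With the atrial score as a covariate 2 macrophage markers were higher (all genes 3.71%) and the median was 0.054. Within array set 1 the count was 2 (all genes 2.37%) and the median 0.072. With 1 cage left out the median lay between 0.094 and 0.26. Adgre1, which defines mouse macrophages, read 209.5, 313.2 and 417.9 units in HF_LF and 207.4, 289.8 and 541.4 in LF_LF. Endothelial markers gave 2 higher of 15 (median 0.087, and 0 higher without the hearts carrying other tissues' transcripts) and cardiomyocyte markers 0 of 10 in either direction (median 0.017). Lyve1 stands on the glucocorticoid-induced list too. The part of macrophage signal in the differences above was not tested.

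With the atrial score as a covariate, 24 probes of 20 genes passed (0.19% of the probes), 20 higher and 4 lower, and all 5 of the probes above were among them. Fkbp5 had a log2 fold change of 0.91 in this fit (adjusted p = 0.000557), Fam107a 0.72, Map3k6 0.53, Per2 0.43 and Slc41a3 -0.43 (adjusted p = 0.0272). Both probes of Herpud1 passed (0.48 and 0.45, adjusted p = 0.000557 and 0.00189), as did Mt1 (0.40, adjusted p = 0.0142) and both leading probes of Pik3r1. When the 7 hearts carrying other tissues' transcripts were left out, no probe passed limma, and 407 had an unadjusted p under 0.05. The fold changes of the genes that rose stayed close to their values, at 0.74 for Fkbp5, 0.63 for Fam107a, 0.49 for Map3k6 and 0.35 for Per2, and that of Slc41a3 was -0.30.

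The HF-fed offspring give the same maternal comparison in different animals, 10 against 10, of which some were sibs of the LF-fed ones from the same cages. Of the 508 probes with an unadjusted p under 0.05 in LF-fed offspring, 75.0% had the same sign there, against 52.9% of all tested probes. All 15 higher genes had the same sign and 11 of them an unadjusted p under 0.05. Of the 15 lower genes, 11 had the same sign and 4 such a p. Of all 12645 tested probes, 1429 had such a p in HF-fed offspring, in either direction. Per2 stood at a log2 fold change of 0.38 in LF-fed animals and 0.34 in HF-fed animals, Mt1 at 0.33 and 0.32, Herpud1 at 0.36 and 0.30 and Klf9 at 0.18 and 0.21. Others were smaller in HF-fed offspring, with 0.80 and 0.32 for Fkbp5, 0.64 and 0.27 for Fam107a and -0.42 and -0.13 for Slc41a3. Their choice by p in LF-fed animals favours larger fold changes there, and so larger differences between the diets of the offspring. In HF-fed offspring 0 probes passed limma, and 1429 had an unadjusted p under 0.05.

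Whether the maternal effect differed between the diets of the offspring was tested with the interaction over all 40 arrays. No probe passed limma (smallest adjusted p = 0.943), and 431 had an unadjusted p under 0.05. The difference of the effects was 0.48 for Fkbp5 (SE 0.177), 0.37 for Fam107a (SE 0.159), -0.29 for Slc41a3 (SE 0.136) and 0.04 for Per2 (SE 0.12), on the log2 scale. The gene with the smallest interaction p was Ucp3, whose log2 fold change was -0.35 in LF-fed animals and 0.33 in HF-fed animals, a difference of -0.68 (SE 0.158, adjusted p = 0.943).

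At 3 weeks, HF_LF animals weighed 10.9 g ± 0.836 and LF_LF animals 9.57 g ± 0.937 (SD, n = 10 each). The difference was 1.35 g, with 9 of 10 HF_LF animals above the LF_LF median (two-sided permutation p = 0.00382, adjusted over 4 measures 0.0153). Over cage means the difference was 1.28 g, with an adjusted exact p of 0.318. A second weight carries the word weaning in the labels, yet it ranged from 20.38 to 26.83 g and so was taken later. It averaged 23.7 g ± 1.81 in HF_LF and 24.7 g ± 1.16 in LF_LF (adjusted permutation p = 0.236). Body length was 98.0 mm ± 2.06 in HF_LF and 99.7 mm ± 1.34 in LF_LF (adjusted permutation p = 0.115), and blood glucose was 194.0 mg/dl ± 24.1 in HF_LF and 206.1 mg/dl ± 34.7 in LF_LF (adjusted permutation p = 0.377). For these last 3 measures the permutation test called no difference between the group means.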

How the data were processed

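Heart RNA of 40 male mice was hybridised to Illumina MouseRef-8 arrays, 1 per animal. The deposited values are fluorescence intensity on a linear scale, which the authors read in BeadStudio and brought to one distribution by quantile normalization of all 40 hearts. They subtracted no background, and the software's version was not given in the sources used here. The table held 25697 probes. Values were converted to log2, and 12645 probes that lay above the array median in 20 or more of the 40 hearts were tested. The number of arrays limits the precision. Detection values were not used here. Symbols came from the platform annotation through the gene table of GRCm38.p6, 1 for 23978 probes and none for 1719.

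HF_LF was compared with LF_LF on their 20 arrays with limma 3.58.1 in R 4.3.3 (moderated test with an intensity trend, Benjamini-Hochberg adjustment over all tested probes, false discovery rate 5%). The interaction used all 40 arrays. For lists, the brightest tested probe stood for a gene. Growth measures were compared with permutation tests (100000 resamples, SciPy 1.17.1), and their cage means with exact ones. Simulated data had 10 against 10 independent arrays with 200 of 12645 probes changed. Cages, array sets, signal of other tissues and correlation between probes were not simulated. In them, 31.2%, 85.5% and 98.5% of probes changed by 0.2, 0.4 and 0.8 (log2) were found and 4.86% of calls were false. These shares need not hold for the real hearts. Named were all probes that passed, the 15 higher and 15 lower genes with the smallest p, up to 3 genes per list with 4 or more tested, and preset glucocorticoid, clock and magnesium genes and cell type markers. The comparison, the lists and the named genes were chosen with earlier results of these data known. Array sets came from dim probes after the data were seen.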

Additional observations from a re-analysis of the deposited data

Results flagged for a closer look

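Among 102 groups of 10 animals looked at (the genes with the smallest p, the growth measures and the tissue scores), 8 held an animal set apart from the rest by a gap that is large against the group's range (Dixon's 95% limit), where chance gives about 1 in 20. Per2 was lowest in HF_LF animal 128, at 581.6 units against 672.7 in the next heart (gap 0.508 of the range); this heart also exceeded the limit for another tissue. Klf13 was highest in HF_LF animal 108, at 648.3 against 546.3 (0.507), and Itgb6 in HF_LF animal 228, at 190.5 against 156.8 (0.535). The other five were tissue scores in LF_LF. Animal 13 had an exocrine pancreas score of 6.98 against 0.649 in the next heart (0.892). Animal 101 had a liver score of 3.85 against 1.22 (0.546) and a cardiomyocyte score of -0.321 against -0.125 (0.478). Animal 133 had a brown adipocyte score of 1.04 against 0.347 (0.621), and animal 134 a lymphocyte and granulocyte score of 0.337 against 0.108 (0.483).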

How the results depend on the processing

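The count of 5 probes was 5 or 6 without the intensity trend, with the filter set on the 20 arrays, 1 probe per gene, other normalization (quantile over the 20 arrays, cyclic loess), background subtraction, a pseudocount of 50, cage as a random block (correlation within cage -0.0137), the array set as a term and within set 1. It was 3 with all 40 arrays in 1 fit, 10 with array weights, 2 with no filter, 24 after adjusting for the atrial score, and 0 (limma) over cage means, within array set 2, without hearts with signal of another tissue and with later weight as a covariate, where 413, 275, 407 and 667 probes had an unadjusted p under 0.05. Leaving out 1 cage or 1 animal gave 0 to 6 probes. It was 0 without cage 4, 6, 10, 12 or 23 or animal 100, 102, 211 or 228, 1 without animal 13, 54, 101, 127, 133, 134 or 227, 2 without cage 1 or 11 or animal 55, and 3 without cage 20 or animal 109 or 177 (the one animal of cage 20 in this comparison). The cause was not tested. All 5 fold changes kept their direction in every setting run, but none kept its call in all. Fkbp5 lost its call without 4 of the 20 animals (adjusted p up to 0.0534) and Slc41a3 without 16 (up to 0.126), and Slc41a3 had an adjusted p of 0.0537 with the array set as a term. The interaction gave 0 probes in each setting run (smallest adjusted p 0.13 with array weights to 0.978). The difference in weight at 3 weeks was 1.284 g over cage means and no longer passed. Array sets were redefined after the data were seen, and the planned version over all untested probes was not run. No paired analysis was possible because the replicate numbers follow accession order and tie no animal of one group to an animal of the other.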
